A study of Homo sapiens with 8 samples.

Results

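The genes described here make, take up, store and export cholesterol, together with the fatty acid enzymes under the same transcriptional control. They were chosen as a list of 35 gene symbols and matched to the symbols in the count files, and all 35 were among the 23228 genes listed. The list has 7 enzymes from acetyl-CoA to farnesyl diphosphate, 12 genes of the squalene and sterol steps, and 4 genes that regulate the pathway. It also has 6 genes of sterol transport, esterification and efflux, and 6 genes of fatty acid and lipid synthesis. They were measured by RNA sequencing in ES2 cells, a human ovarian cancer line, in 8 libraries, 2 per group. The groups were KDM1A knockout (KO) cells with LY500307, control cells with LY500307, KO cells with vehicle, and control cells with vehicle. KDM1A is a histone demethylase that acts on lysine 4 of histone H3, and LY500307 is an agonist of oestrogen receptor beta, given at 5 µM for 48 h. All groups were grown in the same serum-containing medium, and serum itself brings lipoprotein cholesterol. The sources used here do not give where KDM1A was edited, whether the KO cells are a clone or a pool, or what the control cells carry. The duplicates are described as runs, and the spread that p-values measure may therefore be technical.

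Cells build cholesterol from acetyl-CoA by way of mevalonate, farnesyl diphosphate, squalene and a series of sterols. The transcription factors SREBP-2, from SREBF2, and SREBP-1, from SREBF1, switch on the genes of cholesterol and fatty acid synthesis. They are carried for activation by SCAP, which INSIG proteins hold back in the endoplasmic reticulum when sterols are plentiful. A sterol surplus instead acts through the liver X receptors (LXR), which raise ABCA1, an exporter of cholesterol, and MYLIP, a ubiquitin ligase that lowers sterol uptake.

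Total gene counts per library were 24348937 to 30131097, and 34 of the 35 genes had enough counts to be tested among 13498 genes. CPM are counts scaled to 1e+06 of the library size after TMM scaling, a scaling that corrects for differences in composition between libraries. KDM1A itself had 72.0 and 71.6 CPM in LY500307-treated KO cells, against 238 and 241 CPM in LY500307-treated control cells. Without the compound it had 75.6 and 77.8 CPM in vehicle-treated KO cells, against 220.0 and 219 CPM in vehicle-treated control cells, so the transcript was lower but present in KO cells. Sums over marker lists are given as the range of the 2 libraries of a group. The epithelial or ovarian marker list of 9 genes summed to 9813 to 10030 CPM in LY500307-treated KO cells. It summed to 7782 to 8017 CPM in LY500307-treated control cells. With vehicle the sum was 12220 to 12580 CPM in KO cells and 8823 to 9075 CPM in control cells. Nearly all of it was VIM, a mesenchymal gene. Its members moved both ways in vehicle-treated KO cells, with VIM (log2 fold change 0.51 ± 0.033, SE), PAX8 (1.57 ± 0.21) and WT1 (1.57 ± 0.21) higher, KRT8 (-1.87 ± 0.11), KRT18 (-1.02 ± 0.045) and EPCAM (-1.39 ± 0.41) lower, and a median log2 fold change of -0.78 over the 8 tested. EPCAM and CDH1, epithelial genes, lay at or under 1.49 CPM in every group mean, KRT19 was as low, and MUC16, an ovarian cancer marker, was near 0. Of the other marker lists, the adipocyte and hepatocyte sums stayed at or under 0.375 CPM in every library. ADIPOQ, LEP and TTR were at 0 counts in all 8 libraries. The endothelial list of 4 genes summed to 26.7 to 31.7 CPM in LY500307-treated KO cells and 83.0 to 88.6 CPM in LY500307-treated control cells. With vehicle the sum was 32.85 to 32.92 CPM in KO cells and 102.6 to 105.3 CPM in control cells. Nearly all of it was CDH5, and PECAM1 stayed near 0. The 3 tested genes of this list moved both ways in vehicle-treated KO cells, with log2 fold changes of -1.74 to 2.97 and a median of 0.20. The haematopoietic list of 6 genes summed to 62.1 to 73.7 CPM in LY500307-treated KO cells and 110.7 to 111.8 CPM in LY500307-treated control cells. With vehicle the sum was 61.75 to 62.09 CPM in KO cells and 96.5 to 100.2 CPM in control cells. Nearly all of it was CD68, with CD3E at 0. The part of these differences in the results below was not tested. In such bulk RNA, fewer expressing cells and less RNA per cell cannot be told apart.

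The 35 genes differed widely in level. Per kilobase of the canonical transcript, DHCR7, the last enzyme of the pathway, stood highest in vehicle-treated control cells at 368 CPM per kb. SCD, the enzyme that puts the first double bond into stearate, followed at 188 CPM per kb, FDPS, which makes farnesyl diphosphate, at 132 and FASN, fatty acid synthase, at 101. ABCA1 and MYLIP, both LXR targets, were low at 1.18 and 1.72 CPM per kb. ABCG1, an exporter that passes cholesterol to lipoprotein particles, had 0 counts in all 8 libraries, which allows up to 0.0996 to 0.123 CPM by a limit of 3 counts per library. Several of the genes overlap another on the opposite strand, and whether the counting used strand was not stated. These are ACAT2 with TCP1 and SOD2, MVK with MMAB, CYP51A1 with AKAP9, C14orf1 with TTLL5, SREBF1 with RAI1, NPC1 with RMC1, and FADS1 with FADS2, which also overlaps FEN1 on its own strand. Reads of each such pair cannot be told apart with certainty, and FDPS and HSD17B7 have pseudogene copies that could share reads.

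In vehicle-treated KO cells the exporter ABCA1, the esterifying enzyme SOAT1 and the lysosomal transporter NPC1 were higher than in control cells, 4 of 6 fatty acid and lipid genes were lower, and genes of sterol synthesis went both ways. Of the 34 genes tested, 19 (55.9%) passed 0.05 in edgeR's quasi-likelihood fit (Benjamini-Hochberg adjusted p), 10 higher and 9 lower in KO cells. Of all tested genes 64% passed, 30.7% higher and 33.3% lower, so the share among these genes was no larger than the background. Their median log2 fold change was 0.05 (a value after ± beside a log2 fold change is its SE), against -0.01 over all genes tested. All 19 calls held when any one of the 8 libraries was left out.

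The largest change was in ABCA1 at chr9:107543287-107690436 on the minus strand (GRCh37 gene bounds), which moves cholesterol and phospholipid out of the cell. It had 37.9 and 37.9 CPM in vehicle-treated KO cells, against 13.0 and 11.7 CPM in vehicle-treated control cells. The KO libraries stood at about the same level and well above both control libraries, a 3.08-fold difference (log2 fold change 1.62 ± 0.090 (SE), adjusted p = 2.15e-17). SOAT1 at chr1:179262849-179327815, which esterifies cholesterol for storage, had 209 and 210.2 CPM in vehicle-treated KO cells, against 133 and 129.6 CPM in vehicle-treated control cells. Its groups did not overlap either (log2 fold change 0.68 ± 0.049 (SE), adjusted p = 4.03e-14). NPC1, which moves cholesterol out of lysosomes, had 105 and 102 CPM in vehicle-treated KO cells, against 74.6 and 83.1 CPM in vehicle-treated control cells, again without overlap (log2 fold change 0.39 ± 0.059 (SE), adjusted p = 5.98e-07, and 0.23 with the median of its chromosome arm removed). MYLIP at chr6:16129317-16148479 went the other way, with 3.08 and 3.28 CPM in vehicle-treated KO cells, against 5.46 and 5.12 CPM in vehicle-treated control cells (log2 fold change -0.73 ± 0.20 (SE), adjusted p = 0.00147). ABCA1 and MYLIP are both targets of LXR, and they changed in opposite directions. STARD4, a carrier of sterols between membranes, had 26.8 and 27.7 CPM in vehicle-treated KO cells, against 33.1 and 28.0 CPM in vehicle-treated control cells. Its groups did not overlap but the difference missed the threshold (log2 fold change -0.16 ± 0.089 (SE), adjusted p = 0.104). With 2 libraries per group, lack of overlap is weak evidence, and its share over all tested genes was not counted. Here and below it only describes the libraries.

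**Figure D1:**
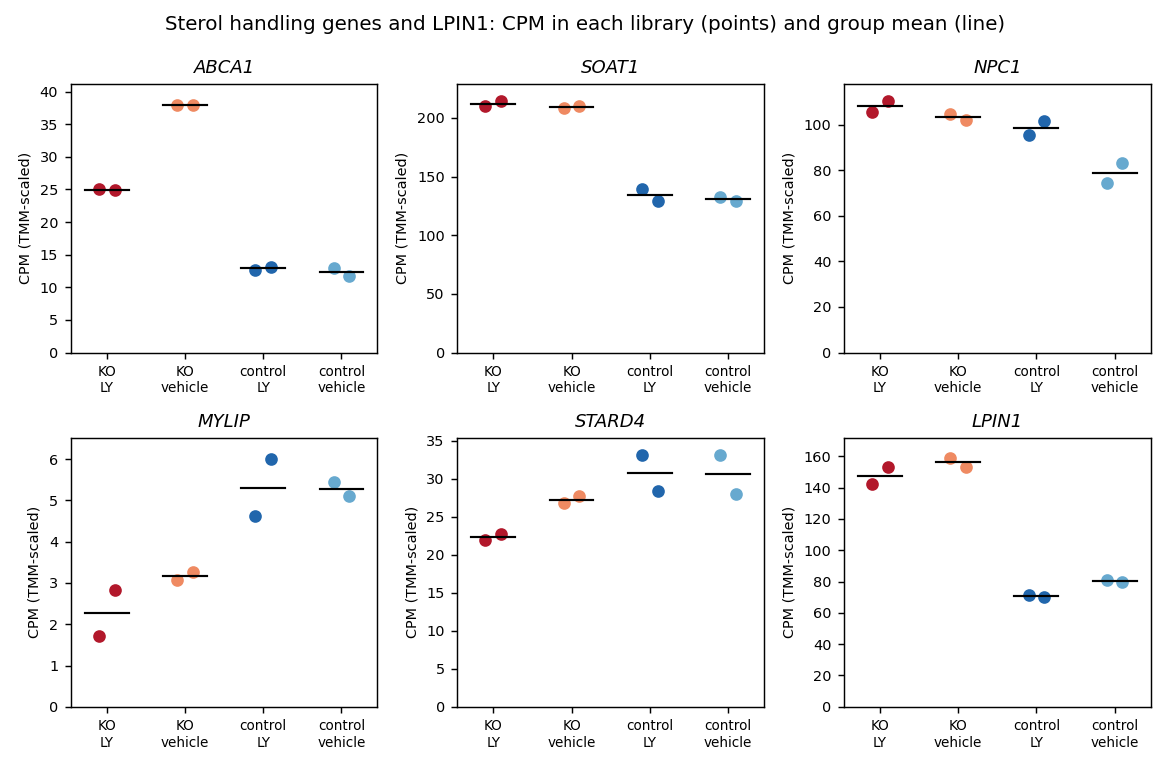
CPM (TMM-scaled) of sterol transport, esterification and efflux genes and of LPIN1 in each library (points) with the group mean (line). KO cells are left of control cells within a treatment. ABCA1 stood at 37.9 CPM in both vehicle-treated KO libraries and at 25.0 and 24.9 CPM in the LY500307-treated KO libraries, above all 4 control libraries.

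The upstream sequence of ABCA1 is shown because this gene carries the largest change. The stretch is chr9:104928267-104928332 (GRCh38.p14, minus strand, RefSeq), and it is written 5′ to 3′ with the letters CACGTG, an E-box, in capitals. The E-box begins 147 bases before the annotated start.
ABCA1: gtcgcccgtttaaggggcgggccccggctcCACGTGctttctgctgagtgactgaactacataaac
The window searched was the 250 bases upstream of the start, in the 23 genes with a single usable RefSeq entry. CACGTG stood there in 3 of the 23 (SCAP, INSIG1 and ABCA1), against 6.34% of 35116 promoters. ACAT2, HMGCS1, IDI1, FDFT1, SQLE, SC5DL, DHCR7, ABCG1, FASN, ACACA, FADS2 and LPIN1 had no single usable entry and were not searched. The window of SREBF2 was the only one of the 23 with the sterol regulatory element letters TCACNCCAC on either strand, against 0.883% of all promoters. It is shown because SREBF2 encodes the factor that binds such elements. The stretch is chr22:41832942-41833010 (GRCh38.p14, plus strand, RefSeq), with the element in capitals.
SREBF2: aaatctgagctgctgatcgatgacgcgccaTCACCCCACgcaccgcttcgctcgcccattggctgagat
A match describes letters only, and no motif was tied to a change in level.

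Among the enzymes from acetyl-CoA to farnesyl diphosphate, 2 of 7 rose and 2 fell in vehicle-treated KO cells (57.1%, against 64% of all tested genes). MVK, mevalonate kinase, had 22.2 and 24.7 CPM in vehicle-treated KO cells, against 15.6 and 15.7 CPM in vehicle-treated control cells (log2 fold change 0.59 ± 0.10 (SE), adjusted p = 7.85e-06). ACAT2, the cytosolic thiolase that joins acetyl-CoA units, had 57.8 and 53.3 CPM in vehicle-treated KO cells, against 82.0 and 74.2 CPM in vehicle-treated control cells (log2 fold change -0.49 ± 0.066 (SE), adjusted p = 5.04e-08). Neither pair of groups overlapped. HMGCS1, which makes HMG-CoA, averaged 51.0 ± 2.05 CPM in KO cells and 65.6 ± 0.671 CPM in control cells (SD, n = 2 each), and IDI1, which isomerises isopentenyl diphosphate, 107 ± 2.78 CPM and 93.5 ± 1.36 CPM. HMGCS1 fell (log2 fold change -0.36 ± 0.066) and IDI1 rose (0.20 ± 0.057), while PMVK (-0.11 ± 0.074), MVD (-0.06 ± 0.077) and FDPS (0.01 ± 0.047) did not pass.

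Of the 12 genes of the squalene and sterol steps, 3 rose and 2 fell (41.7%, against 64% of all tested genes). The median log2 fold change over the 12 was 0.13. C14orf1 (now ERG28) at chr14:76116134-76127219, a scaffold for the enzymes that demethylate sterols at carbon 4, had 50.7 and 49.1 CPM in vehicle-treated KO cells, against 31.5 and 35.2 CPM in vehicle-treated control cells (log2 fold change 0.58 ± 0.074 (SE), adjusted p = 2.22e-08, and 0.28 with the median of its chromosome arm removed). NSDHL, a dehydrogenase of the same demethylation, had 57.0 and 58.0 CPM in vehicle-treated KO cells, against 45.0 and 45.1 CPM in vehicle-treated control cells (log2 fold change 0.35 ± 0.064 (SE), adjusted p = 1.33e-05). EBP, a sterol isomerase, averaged 44.6 ± 0.916 CPM in KO cells and 34.9 ± 0.0504 CPM in control cells (log2 fold change 0.35 ± 0.071). No KO library of these genes overlapped a control library. The genes that fell were SQLE at chr8:126010739-126034525, squalene epoxidase and a rate-limiting enzyme, and DHCR7. SQLE had 78.4 and 70.7 CPM in vehicle-treated KO cells, against 104 and 99.5 CPM in vehicle-treated control cells (log2 fold change -0.45 ± 0.059 (SE), adjusted p = 3.18e-08). DHCR7 had 722 and 772 CPM in vehicle-treated KO cells, against 954 and 979 CPM in vehicle-treated control cells (log2 fold change -0.37 ± 0.042 (SE), adjusted p = 1.47e-09), so the most abundant gene per kilobase was among those lower in KO cells. The other 7, FDFT1, LSS, CYP51A1, TM7SF2, SC4MOL, HSD17B7 and SC5DL, did not pass, with log2 fold changes of -0.05 (FDFT1) to 0.40 (TM7SF2). For LSS, which folds squalene epoxide into lanosterol, the 95% interval was -0.11 to 0.15, and for HSD17B7, a ketosteroid reductase with few counts, -0.15 to 0.52.

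Of the 4 regulators only SCAP passed (25%, against 64% of all tested genes). It averaged 90.4 ± 2.85 CPM in KO cells and 68.8 ± 2.12 CPM in control cells (log2 fold change 0.39 ± 0.060, adjusted p = 5.52e-07). The 95% intervals of the others were -0.0049 to 0.21 for SREBF2, -0.07 to 0.18 for SREBF1 and -0.08 to 0.14 for INSIG1.

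In the fatty acid and lipid group 1 of 6 rose and 4 fell (83.3%, against 64% of all tested genes). LPIN1 at chr2:11817721-11967535, a phosphatidate phosphatase, had 159 and 153 CPM in vehicle-treated KO cells, against 80.7 and 79.9 CPM in vehicle-treated control cells. Both KO libraries stood well above the controls (log2 fold change 0.96 ± 0.054 (SE), adjusted p = 3.78e-17). ACACA, acetyl-CoA carboxylase, had 147 and 154 CPM in vehicle-treated KO cells, against 220.3 and 208 CPM in vehicle-treated control cells (log2 fold change -0.51 ± 0.051 (SE), adjusted p = 1.15e-10). SCD had 746 and 743 CPM in vehicle-treated KO cells, against 1005 and 964 CPM in vehicle-treated control cells (log2 fold change -0.40 ± 0.038 (SE), adjusted p = 3.39e-11). All 4 KO libraries of the study lay below all 4 control libraries for both of these enzymes. FADS2, the delta-6 desaturase, had 50.6 and 55.2 CPM in vehicle-treated KO cells, against 60.4 and 69.2 CPM in vehicle-treated control cells (log2 fold change -0.29 ± 0.068 (SE), adjusted p = 3.68e-04). FADS1, the delta-5 desaturase, had 185 and 186 CPM in vehicle-treated KO cells, against 211 and 205 CPM in vehicle-treated control cells (log2 fold change -0.17 ± 0.046 (SE), adjusted p = 0.00205). The vehicle-treated KO and control libraries did not overlap for either desaturase. FASN had 848 and 925 CPM in vehicle-treated KO cells, against 827 and 882 CPM in vehicle-treated control cells, which overlapped (log2 fold change 0.05 ± 0.052 (SE), adjusted p = 0.374).

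**Figure D2:**
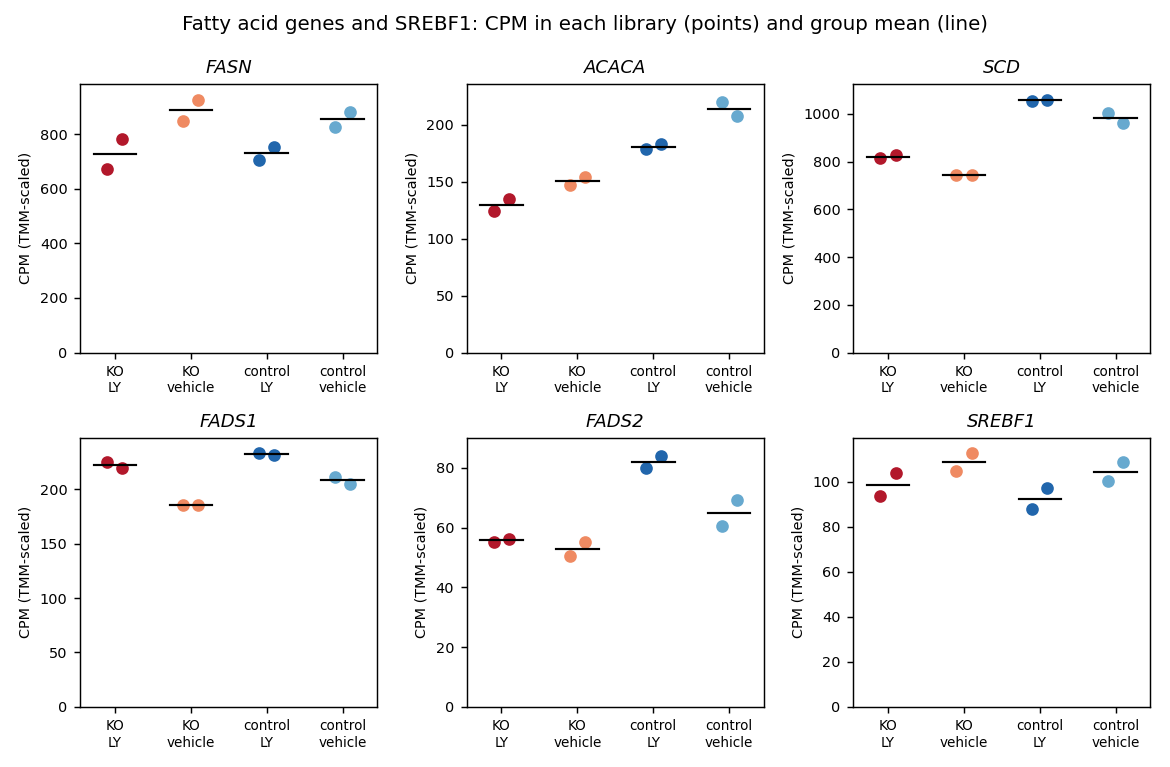
CPM (TMM-scaled) of 5 fatty acid genes and SREBF1 in each library (points) with the group mean (line). ACACA and SCD were lower in all 4 KO libraries than in all 4 control libraries, and FASN was lower in both treated groups than in their vehicle groups.

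With LY500307 present, 23 of 34 genes (67.6%) differed between KO and control cells by the same test, 12 higher and 11 lower. Of all tested genes 66.2% differed, 32.6% higher and 33.6% lower. The 2 KO comparisons have no library in common, and 10 genes were higher in both (29.4%, against 26.5% of all tested genes) and 8 lower in both (23.5%, against 28.5%), with 0 opposite. ABCA1 had 25.0 and 24.9 CPM in LY500307-treated KO cells, against 12.7 and 13.1 CPM in LY500307-treated control cells, a 1.93-fold difference (log2 fold change 0.95 ± 0.090 (SE), adjusted p = 2.56e-11). LPIN1 had 142 and 153 CPM in LY500307-treated KO cells, against 71.3 and 69.9 CPM in LY500307-treated control cells (log2 fold change 1.06 ± 0.054), and SOAT1 210.4 and 214 CPM in LY500307-treated KO cells, against 139.7 and 129.5 CPM in LY500307-treated control cells (0.66 ± 0.049). All of these stood higher in both KO libraries. MYLIP had 1.72 and 2.83 CPM in LY500307-treated KO cells, against 4.61 and 5.99 CPM in LY500307-treated control cells (log2 fold change -1.21 ± 0.20 (SE), adjusted p = 2.82e-06), and STARD4 21.9 and 22.7 CPM in LY500307-treated KO cells, against 33.1 and 28.3 CPM in LY500307-treated control cells (-0.46 ± 0.089 (SE), adjusted p = 2.85e-05). ACAT2 had 61.9 and 56.9 CPM in LY500307-treated KO cells, against 86.6 and 84.0 CPM in LY500307-treated control cells (log2 fold change -0.52 ± 0.064), and FADS2 55.2 and 56.3 CPM in LY500307-treated KO cells, against 80.0 and 84.1 CPM in LY500307-treated control cells (-0.56 ± 0.066). Each of these 4 was lower in both KO libraries than in either control library. CYP51A1, the enzyme that removes the methyl group of lanosterol at carbon 14, and SC5DL (now SC5D), a sterol desaturase, were among those higher (log2 fold changes 0.30 ± 0.063 and 0.31 ± 0.076), and FDFT1, squalene synthase, and MVD, which forms isopentenyl diphosphate, among those lower (-0.21 ± 0.050 and -0.18 ± 0.075). FADS1 (-0.06 ± 0.045) was not called here.

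Of these 23 calls 19 held without any one library. MVD lost its call without replicate 1 (adjusted p = 0.125) or replicate 2 (0.0763) of LY500307-treated control cells and without replicate 1 of LY500307-treated KO cells (0.446). NPC1 (log2 fold change 0.13) lost it without replicate 1 of the treated control cells (0.305), replicate 2 of the treated KO cells (0.248), and replicate 1 (0.0522) or replicate 2 (0.0501) of the vehicle-treated KO cells. IDI1 (0.125) and SC5DL (0.0604) lost it without replicate 2 of the treated control cells. MVD also missed the threshold with library totals in place of TMM (adjusted p = 0.0865) and with DESeq2 (0.0688), and NPC1 with DESeq2 (0.0683) and with no filter on low counts (0.05001).

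Whole chromosome arms differed between KO and control cells, and the position of a gene moved with some of these values. HMGCS1 lies on 5p, where the median of the other tested genes was -0.78 in vehicle-treated cells. HMGCS1 itself had a log2 fold change of -0.36, which becomes 0.41 with the arm median removed. For IDI1 on 10p, with an arm median of 0.32, the value becomes -0.12, and for SCAP on 3p and SQLE on 8q little remains at 0.09 and -0.09. The changes of ABCA1 (1.52), LPIN1 (1.08), MVK (0.61), SOAT1 (0.52), MYLIP (-0.76) and SCD (-0.44) kept their direction and most of their size. Those of C14orf1 on 14q, NPC1 on 18q and ACACA on 17q kept their direction at less than their full size, with 0.28 against 0.58, 0.23 against 0.39 and -0.33 against -0.51. In the LY500307-treated cells they became 0.18, 0.025 and -0.28, against 0.49, 0.13 and -0.48. These are values without a test.

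**Figure D3:**
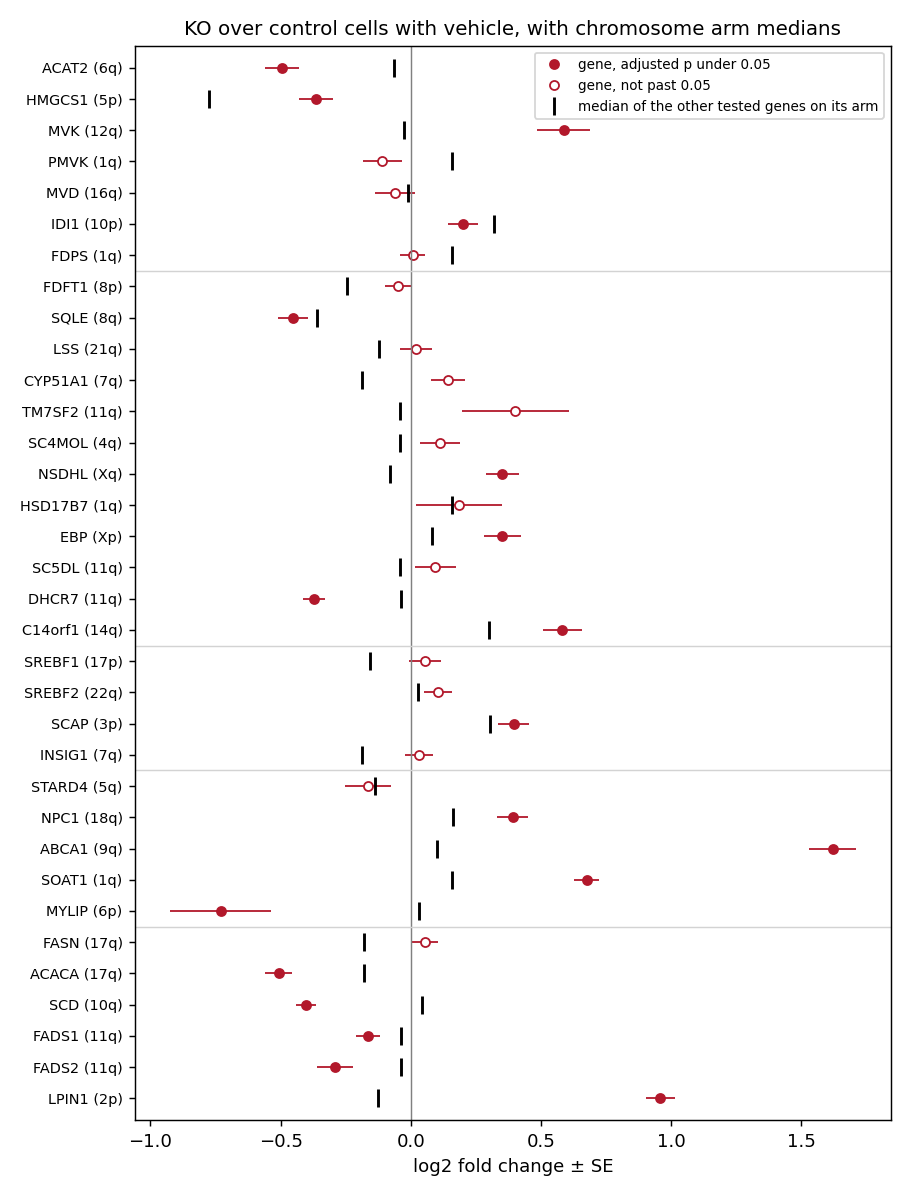
Log2 fold change ± SE of KO over control cells with vehicle for the 34 tested genes (points, filled where adjusted p was under 0.05), with the median of the other tested genes on the same chromosome arm (black bar). ABCA1 at 1.62 and LPIN1 at 0.96 lie far from their arm medians, and HMGCS1 at -0.36 lies above its arm median of -0.78.

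LY500307 raised sterol-step genes in both cell populations, with TM7SF2 changed most, and lowered FASN, ACACA and FDPS. In KO cells 13 of 34 genes (38.2%) passed the same test, 8 higher and 5 lower, against 20.4% of all tested genes (9.16% higher, 11.3% lower). In control cells 15 (44.1%) passed, 10 higher and 5 lower, against 26.3% of all tested genes (12.3% higher, 14% lower). The split depends on scaling, since library totals in place of TMM gave 13 higher and 3 lower in KO cells and 15 higher and 2 lower in control cells. Among all genes library totals gave 2288 higher and 953 lower in KO cells (1237 and 1522 with TMM) and 2831 higher and 1011 lower in control cells (1665 and 1885 with TMM). No gene of the 34 that passed changed direction under library totals or RLE size factors. The 2 comparisons have no library in common, and 6 genes were higher in both (CYP51A1, FADS1, SC4MOL, SCD, SQLE and TM7SF2; 17.6%, against 4.26% of all tested genes). A further 3 were lower in both (ACACA, FASN and FDPS; 8.82%, against 6.65%), and 0 were opposite.

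Of the 12 squalene and sterol genes, 6 rose and 0 fell in KO cells (50%, against 20.4% of all tested genes). In control cells 5 rose and 0 fell (41.7%, against 26.3%). The median log2 fold changes were 0.14 and 0.16 (0.20 and 0.23 with library totals). With RLE size factors or DESeq2, FDFT1 (-0.13 in the main fit) was called lower in KO cells and NSDHL was not called. TM7SF2 at chr11:64879317-64883856, a sterol reductase acting at carbon 14, had 8.10 and 8.14 CPM in LY500307-treated KO cells, against 3.36 and 4.98 CPM in vehicle-treated KO cells (log2 fold change 0.94 ± 0.17 (SE), adjusted p = 1.31e-04). In control cells it had 8.25 and 5.67 CPM with LY500307, against 3.45 and 2.94 CPM with vehicle (log2 fold change 1.12 ± 0.19 (SE), adjusted p = 3.60e-05). All 4 treated libraries were higher than all 4 vehicle libraries, at a low level throughout. CYP51A1 at chr7:91714301-91764117 had 67.2 and 70.4 CPM in LY500307-treated KO cells, against 53.8 and 51.2 CPM in vehicle-treated KO cells (log2 fold change 0.39 ± 0.063 (SE), adjusted p = 2.43e-05). In control cells it had 56.2 and 55.6 CPM with LY500307, against 48.4 and 46.6 CPM with vehicle (log2 fold change 0.23 ± 0.065 (SE), adjusted p = 0.00714). Neither population showed overlap between treatments.

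SC4MOL (now MSMO1) at chr4:166248819-166264316, the oxidase that starts demethylation at carbon 4, had 56.4 and 51.6 CPM in LY500307-treated KO cells, against 46.2 and 40.8 CPM in vehicle-treated KO cells (log2 fold change 0.31 ± 0.075 (SE), adjusted p = 0.00237). Control cells had 51.8 and 46.8 CPM with LY500307, against 42.3 and 38.1 CPM with vehicle for SC4MOL (log2 fold change 0.30 ± 0.077 (SE), adjusted p = 0.00408). SQLE had 89.2 and 93.3 CPM in LY500307-treated KO cells, against 78.4 and 70.7 CPM in vehicle-treated KO cells (log2 fold change 0.29 ± 0.059 (SE), adjusted p = 3.71e-04), and 122 and 118 CPM in LY500307-treated control cells, against 104 and 99.5 CPM in vehicle-treated control cells (0.24 ± 0.057 (SE), adjusted p = 0.00211). Treated and vehicle libraries of SC4MOL and SQLE did not overlap within either population. DHCR7 had 786 and 828 CPM in LY500307-treated KO cells, against 722 and 772 CPM in vehicle-treated KO cells (log2 fold change 0.11 ± 0.042 (SE), adjusted p = 0.0557), and 1060.1 and 1114 CPM in LY500307-treated control cells, against 954 and 979 CPM in vehicle-treated control cells (0.17 ± 0.042 (SE), adjusted p = 0.00255). Only the difference in control cells passed. SC5DL had 46.7 and 43.8 CPM in LY500307-treated KO cells, against 38.0 and 37.1 CPM in vehicle-treated KO cells (log2 fold change 0.27 ± 0.076 (SE), adjusted p = 0.0103), and in control cells 39.6 and 33.6 CPM with LY500307, against 36.4 and 34.0 CPM with vehicle, which overlapped (0.06 ± 0.079 (SE), adjusted p = 0.623). NSDHL had 64.8 and 65.0 CPM in LY500307-treated KO cells, against 57.0 and 58.0 CPM in vehicle-treated KO cells (log2 fold change 0.17 ± 0.062 (SE), adjusted p = 0.0416), and in control cells 49.1 and 49.6 CPM with LY500307, against 45.0 and 45.1 CPM with vehicle (0.13 ± 0.065 (SE), adjusted p = 0.134). The difference in the effect of LY500307 between KO and control cells did not pass the interaction test for DHCR7, SC5DL or NSDHL (adjusted p = 0.706, 0.381 and 0.883).

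**Figure D4:**
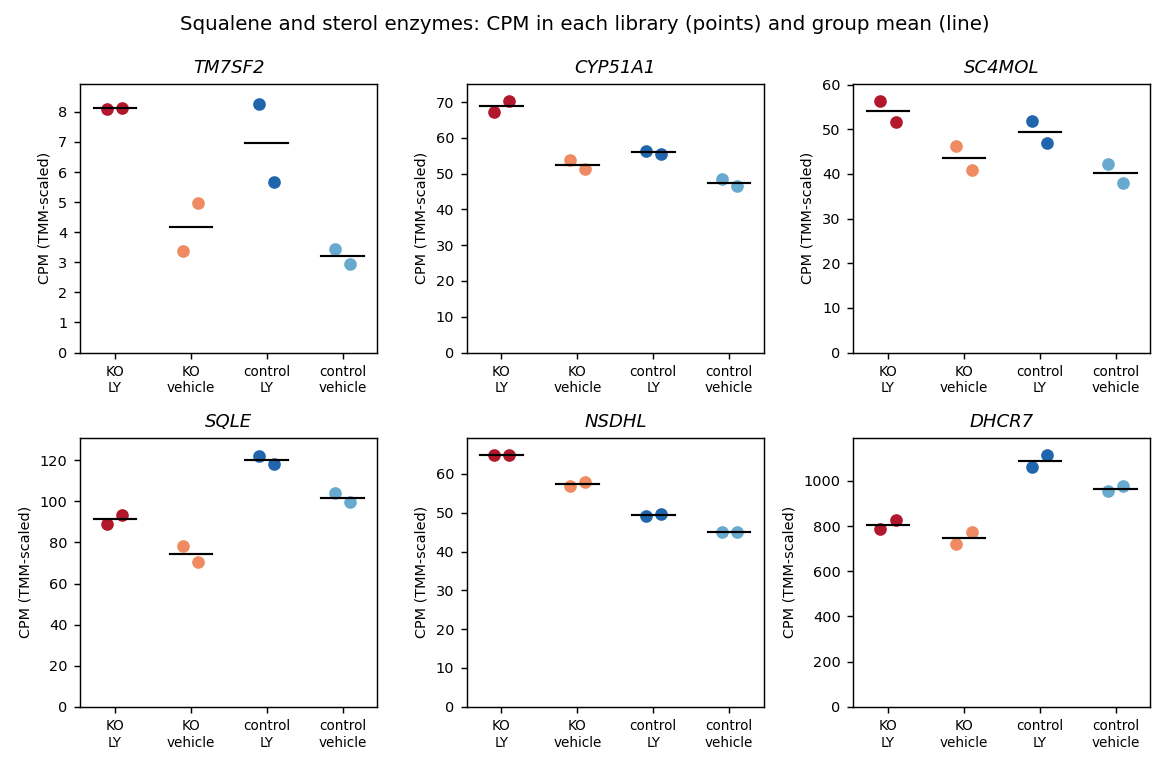
CPM (TMM-scaled) of sterol-step genes in each library (points) with the group mean (line). TM7SF2, CYP51A1 and SC4MOL were higher in the LY500307-treated libraries than in the vehicle libraries of the same cells.

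The upstream stretches of TM7SF2 and SC4MOL are shown because these sterol genes were higher with LY500307 in both populations. TM7SF2 is given at chr11:65111768-65111832 and SC4MOL at chr4:165327454-165327668 (GRCh38.p14, plus strand, RefSeq). Capitals mark the letters CCAAT, the box bound by the factor NF-Y, on either strand (read as ATTGG on the other strand).
TM7SF2: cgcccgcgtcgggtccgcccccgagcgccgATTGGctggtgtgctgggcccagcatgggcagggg
SC4MOL: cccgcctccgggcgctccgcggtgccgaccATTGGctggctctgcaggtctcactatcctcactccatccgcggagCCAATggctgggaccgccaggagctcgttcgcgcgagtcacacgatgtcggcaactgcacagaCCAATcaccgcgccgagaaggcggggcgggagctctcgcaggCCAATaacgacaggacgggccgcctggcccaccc
SC4MOL has 4 such boxes in this stretch and TM7SF2 has 1. In the window of 250 bases before the start, 16 of the 23 genes searched held CCAAT on either strand, against 32.0% of 35116 promoters. CYP51A1 and FADS1, which were also higher in both populations, held none in theirs.

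Among the enzymes from acetyl-CoA to farnesyl diphosphate, LY500307 lowered FDPS at chr1:155278539-155290457, with 166 and 166 CPM in LY500307-treated KO cells, against 187 and 188 CPM in vehicle-treated KO cells (log2 fold change -0.18 ± 0.047 (SE), adjusted p = 0.00630). Control cells had 169 and 164 CPM with LY500307, against 185 and 188 CPM with vehicle for FDPS (log2 fold change -0.16 ± 0.047 (SE), adjusted p = 0.0106). All treated libraries were lower than all vehicle libraries. MVK had 24.7 and 31.0 CPM in LY500307-treated KO cells, against 22.2 and 24.7 CPM in vehicle-treated KO cells (log2 fold change 0.25 ± 0.10 (SE), adjusted p = 0.0630), and rose in control cells, with 19.5 and 21.9 CPM with LY500307, against 15.6 and 15.7 CPM with vehicle (0.40 ± 0.10 (SE), adjusted p = 0.00441). The other 5, ACAT2, HMGCS1, PMVK, MVD and IDI1, passed in neither population, with log2 fold changes of -0.09 to 0.14 in KO cells and 0.02 to 0.13 in control cells.

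Of the 6 fatty acid and lipid genes 4 passed in KO cells, 2 in each direction (66.7%, against 20.4% of all tested genes). All 6 passed in control cells, 3 higher and 3 lower (100%, against 26.3%). FASN at chr17:80036214-80056170 had 670.4 and 783 CPM in LY500307-treated KO cells, against 848 and 925 CPM in vehicle-treated KO cells (log2 fold change -0.29 ± 0.052 (SE), adjusted p = 1.04e-04). Control cells had 707 and 753 CPM with LY500307, against 827 and 882 CPM with vehicle for FASN (log2 fold change -0.23 ± 0.052 (SE), adjusted p = 0.00125). ACACA at chr17:35441927-35766927 had 124 and 135 CPM in LY500307-treated KO cells, against 147 and 154 CPM in vehicle-treated KO cells (log2 fold change -0.21 ± 0.052 (SE), adjusted p = 0.00283), and 179 and 183 CPM in LY500307-treated control cells, against 220.3 and 208 CPM in vehicle-treated control cells (-0.24 ± 0.050 (SE), adjusted p = 5.64e-04). FASN and ACACA catalyse successive parts of palmitate synthesis, and both were lower in every treated library than in any vehicle library of the same cells. The desaturases went the other way. SCD had 816 and 827 CPM in LY500307-treated KO cells, against 746 and 743 CPM in vehicle-treated KO cells (log2 fold change 0.14 ± 0.038 (SE), adjusted p = 0.00710), and 1056 and 1058 CPM in LY500307-treated control cells, against 1005 and 964 CPM in vehicle-treated control cells (0.10 ± 0.038 (SE), adjusted p = 0.0444). FADS1 had 225 and 219 CPM in LY500307-treated KO cells, against 185 and 186 CPM in vehicle-treated KO cells (log2 fold change 0.26 ± 0.046 (SE), adjusted p = 6.98e-05), and 233 and 231 CPM in LY500307-treated control cells, against 211 and 205 CPM in vehicle-treated control cells (0.16 ± 0.046 (SE), adjusted p = 0.00991). FADS2 had 55.2 and 56.3 CPM in LY500307-treated KO cells, against 50.6 and 55.2 CPM in vehicle-treated KO cells, a difference that did not pass (log2 fold change 0.07 ± 0.068 (SE), adjusted p = 0.487), and 80.0 and 84.1 CPM in LY500307-treated control cells, against 60.4 and 69.2 CPM in vehicle-treated control cells (0.34 ± 0.066 (SE), adjusted p = 2.39e-04). SCD and FADS1 were thus higher in the treated libraries of both populations. LPIN1 had 142 and 153 CPM in LY500307-treated KO cells, against 159 and 153 CPM in vehicle-treated KO cells (log2 fold change -0.08 ± 0.052 (SE), adjusted p = 0.291), and 71.3 and 69.9 CPM in LY500307-treated control cells, against 80.7 and 79.9 CPM in vehicle-treated control cells (-0.18 ± 0.056 (SE), adjusted p = 0.0145). The median over the 6 was -0.0036 in KO cells and -0.04 in control cells, and became 0.06 and 0.03 with library totals.

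Of the 4 regulators only SREBF1 passed, and in control cells only (25%, against 26.3% of all tested genes). It had 93.6 and 104 CPM in LY500307-treated KO cells, against 105 and 113 CPM in vehicle-treated KO cells (log2 fold change -0.14 ± 0.061 (SE), adjusted p = 0.106). In control cells it had 87.8 and 97.2 CPM with LY500307, against 100.4 and 109 CPM with vehicle (log2 fold change -0.18 ± 0.062 (SE), adjusted p = 0.0328). Treated libraries lay below vehicle libraries in both, narrowly so in KO cells. SREBF2, SCAP and INSIG1 did not pass in either population, with values between -0.13 (SREBF2, KO cells) and 0.12 (INSIG1, KO cells). Among transport genes NPC1 had 106 and 111 CPM in LY500307-treated KO cells, against 105 and 102 CPM in vehicle-treated KO cells (log2 fold change 0.06 ± 0.058 (SE), adjusted p = 0.461), and rose in control cells, with 95.7 and 102 CPM with LY500307, against 74.6 and 83.1 CPM with vehicle (0.32 ± 0.059 (SE), adjusted p = 1.06e-04). STARD4 fell in KO cells, with 21.9 and 22.7 CPM in LY500307-treated KO cells, against 26.8 and 27.7 CPM in vehicle-treated KO cells (log2 fold change -0.29 ± 0.090 (SE), adjusted p = 0.0206), and in control cells had 33.1 and 28.3 CPM with LY500307, against 33.1 and 28.0 CPM with vehicle, which overlapped (0.01 ± 0.088 (SE), adjusted p = 0.961). MYLIP (-0.47 ± 0.22 in KO cells, 0.0032 ± 0.18 in control cells) and SOAT1 (0.02 ± 0.048 and 0.04 ± 0.050) did not pass.

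**Figure D5:**
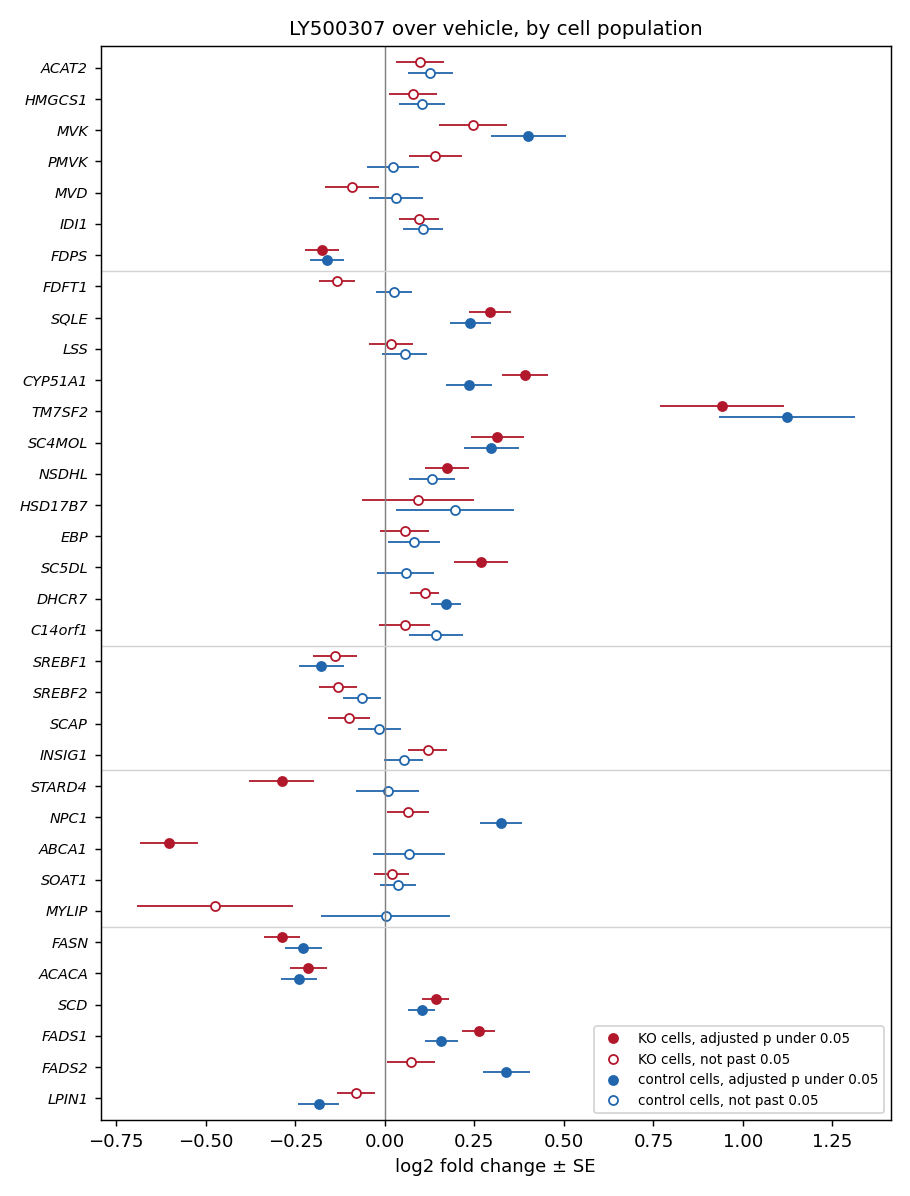
Log2 fold change ± SE of LY500307 over vehicle in KO cells and in control cells for the 34 tested genes (filled where adjusted p was under 0.05). TM7SF2 lies farthest to the right in both populations, at 0.94 in KO cells and 1.12 in control cells, and ABCA1 lies at -0.60 in KO cells and 0.07 in control cells.

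Many of these LY500307 effects are small, and some calls rested on 1 library. In KO cells ABCA1, CYP51A1, FADS1, FASN, SQLE and TM7SF2 held without any one library, and 7 of the 13 calls did not. Without replicate 2 of vehicle-treated KO cells 7 genes passed, and the adjusted p was 0.0688 for ACACA, 0.0564 for FDPS, 0.140 for NSDHL, 0.113 for SC4MOL, 0.0926 for SC5DL, 0.0576 for SCD and 0.139 for STARD4. Without replicate 1 of LY500307-treated KO cells it was 0.0600 for ACACA, 0.143 for NSDHL, 0.0652 for SC4MOL, 0.119 for SC5DL and 0.0919 for STARD4. STARD4 (0.0546) and NSDHL (0.182) were lost without replicate 1 of vehicle-treated KO cells. NSDHL was lost as well without replicate 2 of LY500307-treated KO cells (0.129), replicate 1 (0.0526) or 2 (0.0554) of LY500307-treated control cells and replicate 2 of vehicle-treated control cells (0.05002), and with RLE size factors (0.0510), DESeq2 (0.0736), no filter (0.0755) and the compared groups alone (0.0581). With library totals FDPS (0.0652) and STARD4 (0.0634) missed the threshold.

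In control cells ACACA, FADS2, NPC1, SQLE and TM7SF2 held throughout, and 10 of the 15 calls did not. Without replicate 2 of vehicle-treated control cells 8 genes passed, and the adjusted p was 0.0788 for CYP51A1, 0.113 for FADS1, 0.0801 for FDPS, 0.0551 for LPIN1, 0.0969 for SC4MOL, 0.339 for SCD and 0.292 for SREBF1. Without replicate 1 of LY500307-treated control cells 8 passed, and it was 0.0531 for CYP51A1, 0.0703 for FADS1, 0.0549 for FASN, 0.0513 for LPIN1, 0.104 for SC4MOL, 0.157 for SCD and 0.361 for SREBF1. Without replicate 2 of that group 9 passed, and it was 0.0888 for DHCR7, 0.0526 for FADS1, 0.0991 for FDPS, 0.0896 for LPIN1, 0.0904 for MVK and 0.183 for SCD. LPIN1 (0.0782) and SCD (0.0583) were also lost without replicate 1 of vehicle-treated control cells, and SCD without replicate 1 (0.0524) or replicate 2 (0.0520) of vehicle-treated KO cells. With library totals FDPS (adjusted p = 0.158), LPIN1 (0.140) and SREBF1 (0.219) missed the threshold, and with DESeq2 FASN (0.1001) and SREBF1 (0.0727).

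The response of ABCA1 to LY500307 differed between the cell populations. This exporter had 25.0 and 24.9 CPM in LY500307-treated KO cells, against 37.9 and 37.9 CPM in vehicle-treated KO cells (log2 fold change -0.60 ± 0.081 (SE), adjusted p = 1.38e-06). In control cells it had 12.7 and 13.1 CPM with LY500307, against 13.0 and 11.7 CPM with vehicle, which overlapped (0.07 ± 0.10 (SE), adjusted p = 0.663). The interaction, the log2 fold change of LY500307 in KO cells minus that in control cells, was -0.67 ± 0.13 (SE), adjusted p = 0.00270 by edgeR's quasi-likelihood test. It was called in all 8 fits that left out 1 library. Both LY500307-treated KO libraries stayed above all 4 control libraries. ABCA1 was the only one of the 34 genes called (2.94%, against 1.62% of all tested genes, of which 0.526% were higher and 1.09% lower). For the others the interaction ranged from -0.48 for MYLIP (adjusted p = 0.466) to 0.21 for SC5DL (adjusted p = 0.381). NPC1 (-0.26 ± 0.083) and FADS2 (-0.27 ± 0.10) did not pass, with adjusted p = 0.104 and 0.158.

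Set against vehicle-treated control cells, KO cells with LY500307 differed in 27 of 34 genes (79.4%), 15 higher and 12 lower, against 67.9% of all tested genes (33.1% higher, 34.8% lower). This comparison shares libraries with those above. Library totals gave 18 higher and 8 lower and moved the median of all tested genes by 0.11 on the log2 scale. Among the squalene and sterol genes 7 were higher and 3 lower, with a median log2 fold change of 0.39 (0.49 with library totals). TM7SF2 had 8.10 and 8.14 CPM in LY500307-treated KO cells, against 3.45 and 2.94 CPM in vehicle-treated control cells (log2 fold change 1.34 ± 0.19 (SE), adjusted p = 9.81e-08), and CYP51A1 67.2 and 70.4 CPM in LY500307-treated KO cells, against 48.4 and 46.6 CPM in vehicle-treated control cells (0.53 ± 0.064 (SE), adjusted p = 5.51e-09). Sterol genes that were higher with both factors included NSDHL (0.53 ± 0.064), SC4MOL (0.43 ± 0.076) and SC5DL (0.36 ± 0.078). All libraries of TM7SF2 and CYP51A1 in the treated KO cells stood above the vehicle-treated control libraries. ABCA1 had 25.0 and 24.9 CPM in LY500307-treated KO cells, against 13.0 and 11.7 CPM in vehicle-treated control cells (log2 fold change 1.02 ± 0.093 (SE), adjusted p = 9.68e-12). ACACA, lower with each factor alone, had 124 and 135 CPM in LY500307-treated KO cells, against 220.3 and 208 CPM in vehicle-treated control cells (log2 fold change -0.72 ± 0.051 (SE), adjusted p = 1.68e-14). SQLE, lower in KO cells and higher with LY500307, had 89.2 and 93.3 CPM in LY500307-treated KO cells, against 104 and 99.5 CPM in vehicle-treated control cells (log2 fold change -0.16 ± 0.058 (SE), adjusted p = 0.0163). With the median of its chromosome arm removed this value becomes 0.18, and that of KO against control cells with vehicle -0.09. SQLE lost its call without replicate 1 of vehicle-treated control cells (0.128) or of LY500307-treated KO cells (0.1004), FADS2 without replicate 2 of vehicle-treated control cells (0.202), and INSIG1 without that library (0.0634) or replicate 2 of LY500307-treated KO cells (0.242). With library totals FADS2 (adjusted p = 0.143), FDFT1 (0.171), FDPS (0.235) and SQLE (0.428) missed the threshold.

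Other genes of the pathway were taken from 4 further lists of related functions. Of 9 tested genes for sterol synthesis and prenyl chains, 2 were higher and 4 lower in vehicle-treated KO cells (66.7%, against 64% of all tested genes, 30.7% higher and 33.3% lower). LBR, a sterol reductase of the nuclear membrane with the same activity as TM7SF2, had 120.0 and 120.4 CPM in vehicle-treated KO cells, against 179 and 162 CPM in vehicle-treated control cells (log2 fold change -0.50 ± 0.054 (SE), adjusted p = 5.14e-10), and with LY500307 its values were -0.01 ± 0.054 in KO cells and -0.08 ± 0.053 in control cells, which did not pass. With LY500307, 1 of the 9 (GGPS1) was called higher and 0 lower in KO cells (11.1%, against 20.4% of all tested genes), and 0 were called higher and 2 lower (FNTB and PDSS1) in control cells (22.2%, against 26.3%). These calls did not hold without single libraries. GGPS1 was lost in 6 of the 8 fits without 1 library, with adjusted p up to 0.207. Both control calls were lost without replicate 2 of LY500307-treated control cells (adjusted p = 0.180 for FNTB and 0.174 for PDSS1) or replicate 2 of vehicle-treated control cells (0.173 and 0.180), and DESeq2 called 0 of the 9 in either population. Library totals gave 1 higher and 1 lower in control cells.

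Of 10 tested genes for sterol uptake, transport and storage, 7 were higher and 1 lower in vehicle-treated KO cells (80%, against 64% of all tested genes). Without replicate 1 of vehicle-treated control cells 4 were higher, as LRP1 (adjusted p = 0.230), STARD3 (0.470) and VLDLR (0.139) lost their calls. LIPA was lost without replicate 2 of that group (0.0943), and STARD3 (0.116) and VLDLR (0.0731) without replicate 1 of vehicle-treated KO cells. NPC2, the lysosomal partner of NPC1, had 45.2 and 42.9 CPM in vehicle-treated KO cells, against 17.6 and 17.4 CPM in vehicle-treated control cells (log2 fold change 1.33 ± 0.087 (SE), adjusted p = 1.60e-15). OSBP, a carrier of sterols between membranes, had a log2 fold change of 0.36 ± 0.051, and SCARB1, a receptor for high-density lipoprotein, fell (-0.38 ± 0.056). With LY500307, 2 of the 10 rose in KO cells, VLDLR, a lipoprotein receptor (0.34 ± 0.080), and OSBP (0.20 ± 0.050), and 1 fell, LRP1 (-0.30 ± 0.081; together 30%, against 20.4% of all tested genes). In control cells 6 rose and 0 fell (60%, against 26.3%), among them NPC2 (0.42 ± 0.091), VLDLR (0.39 ± 0.084) and OSBP (0.23 ± 0.051). With DESeq2, or without replicate 1 or replicate 2 of LY500307-treated control cells or replicate 1 of vehicle-treated control cells, 4 rose in control cells. The call of VLDLR in KO cells was lost without replicate 2 of vehicle-treated KO cells (0.0526), and that of OSBP without that library (0.0819) or replicate 1 of LY500307-treated KO cells (0.0552). LRP1 in KO cells was lost without that last library too (0.151). SOAT2, ABCG4 and CH25H were not tested for want of counts.

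Of 12 genes for sterol sensing and turnover of regulators, 5 were higher and 3 lower in vehicle-treated KO cells (66.7%, against 64% of all tested genes). NR1H3, which encodes LXR alpha, had 5.63 and 6.72 CPM in vehicle-treated KO cells, against 3.54 and 4.69 CPM in vehicle-treated control cells (log2 fold change 0.59 ± 0.16 (SE), adjusted p = 0.00208), a call lost without replicate 1 of vehicle-treated control cells (0.0785) or replicate 2 of vehicle-treated KO cells (0.0612). NR1H2, which encodes LXR beta, did not pass (-0.16 ± 0.079). ERLIN2 (-0.45 ± 0.054) and RNF139 (-0.41 ± 0.066), both in endoplasmic reticulum degradation, were lower. In the same comparison the tested genes on their chromosome arms had medians of -0.24 (8p, ERLIN2) and -0.36 (8q, RNF139). The part of the arm in these 2 changes was not tested. With LY500307, 3 were called higher and 1 lower in KO cells (33.3%, against 20.4% of all tested genes), and 3 higher and 2 lower in control cells (41.7%, against 26.3%). In KO cells 1 was higher and 0 lower without replicate 1 of vehicle-treated KO cells, 2 and 0 without replicate 2 of that group or replicate 1 of LY500307-treated KO cells, and 2 and 1 without replicate 2 of the treated ones. In control cells 1 was higher and 2 lower without replicate 1 of vehicle-treated control cells, and 2 and 1 without each of the other 3 control libraries in turn. Library totals gave 4 higher and 0 lower in KO cells and 4 higher and 1 lower in control cells. INSIG2, which retains SCAP as INSIG1 does, had 20.8 and 22.0 CPM in LY500307-treated KO cells, against 17.7 and 17.0 CPM in vehicle-treated KO cells (log2 fold change 0.30 ± 0.092 (SE), adjusted p = 0.0174), a call lost without replicate 2 of LY500307-treated KO cells (0.115) or without replicate 1 (0.0514) or 2 (0.144) of vehicle-treated KO cells. In control cells it had 27.2 and 24.1 CPM with LY500307, against 19.9 and 18.6 CPM with vehicle (log2 fold change 0.41 ± 0.091 (SE), adjusted p = 9.56e-04). INSIG1, given above, did not pass in either population.

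Of 10 tested genes for fatty acid synthesis and remodelling, 3 were higher and 1 lower in vehicle-treated KO cells (40%, against 64% of all tested genes). ELOVL6, which lengthens palmitate, had 62.4 and 56.6 CPM in vehicle-treated KO cells, against 92.9 and 91.1 CPM in vehicle-treated control cells (log2 fold change -0.63 ± 0.062 (SE), adjusted p = 7.67e-11). ACSL3 (0.25 ± 0.046) and ACSL1 (0.32 ± 0.076), which activate fatty acids, and HSD17B12 (0.28 ± 0.060), an enzyme of fatty acid elongation, were higher. ACSL3 lies on 2q, where the tested genes had a median of 0.33 in the same comparison, so its value did not exceed that of its arm. With LY500307, 0 were called higher and 2 lower in KO cells, and 1 higher and 1 lower in control cells (20% in each, against 20.4% and 26.3% of all tested genes). The split depends on scaling, since library totals gave 2 higher and 1 lower in KO cells and 3 higher and 0 lower in control cells. ACLY, which makes cytosolic acetyl-CoA, fell in KO cells (-0.16 ± 0.041) and in control cells (-0.15 ± 0.041). Those calls were lost without replicate 2 of vehicle-treated KO cells (0.0798) and without replicate 2 of vehicle-treated control cells (0.0626), and both with library totals (0.0575 and 0.131). LPCAT3, the other gene lower in KO cells, was lost without replicate 1 of LY500307-treated KO cells (0.0903) or replicate 2 of vehicle-treated KO cells (0.0655). PNPLA3, the gene higher in control cells, was lost without replicate 1 of LY500307-treated control cells (0.131) or of vehicle-treated control cells (0.199). ACLY thus had values of the same sign as ACACA and FASN in both populations.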

How the data were processed

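RNA of 8 ES2 libraries, 2 per group, was analysed from the deposited tables of whole-number read counts per gene symbol. Per the submitters' processing notes, the authors used hg19, TopHat2 2.0.8b, HTSeq and bcl2fastq. Entries that name no gene were left out. They held 10.7% to 12.8% (no feature) and 0.811% to 0.861% (ambiguous) of unique alignments. The libraries of each duplicate pair differed beyond sampling noise (chi-square over its degrees of freedom 3.12 to 4.44) and were kept as separate samples. The number of unused sample columns was 0.

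Counts were fitted with edgeR 4.0.16 (limma 3.58.1, R 4.3.3). Among the 23228 listed genes 5520 were at 0 throughout, and 13498 passed filterByExpr. Library sizes were TMM-scaled, and one quasi-likelihood model with a mean per group was fitted to all 8 libraries (4 residual degrees of freedom, prior 30.1, biological coefficient of variation 3.95%). The 6 comparisons, the last being the interaction, were tested two-sided with glmQLFTest and Benjamini-Hochberg adjustment over all tested genes at 0.05. SE were derived from the same tests, as the absolute log2 fold change over the square root of the F statistic. The 95% intervals use these SE with a t quantile, and limits from 3 counts cover counting error only. The procedure was tested on simulated data.

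Members and lists were chosen with earlier results of these data known. Values in every library are given for members called with LY500307 or in the interaction, or called with an absolute log2 fold change of at least 0.5 in KO cells, and up to 4 genes of each further list by smallest p. NSDHL and STARD4 under vehicle, and among further genes NR1H3, NR1H2 and INSIG2, were added after their values were seen, as were the ABCA1, TM7SF2 and SC4MOL stretches. Positions were taken from the GRCh37 lift of GENCODE 44, and promoters from RefSeq on GRCh38.p14. Alternatives were library totals, RLE size factors, DESeq2 1.42.0, no filter, the compared groups alone, a replicate block, removal of arm medians and leaving out each library. Some genes of the pathway are not reported here.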

Additional observations from a re-analysis of the deposited data

Results flagged for a closer look

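The effect of LY500307 differed between KO and control cells by the interaction test (edgeR's quasi-likelihood test, Benjamini-Hochberg adjustment) for 1 of the listed genes and 2 of the further pathway genes. For ABCA1 the interaction was -0.67 (adjusted p = 0.00270), with log2 fold changes of -0.60 in KO cells and 0.07 in control cells. For LRP1, a large endocytic receptor, it was -0.55 (adjusted p = 0.00685). LRP1 had 29.4 and 34.99 CPM in LY500307-treated KO cells, against 39.8 and 39.7 CPM in vehicle-treated KO cells, and 39.7 and 40.2 CPM in LY500307-treated control cells, against 31.4 and 36.1 CPM in vehicle-treated control cells. Its call was lost without replicate 1 of vehicle-treated control cells (adjusted p = 0.0706). For LPCAT3, which puts polyunsaturated fatty acids into phospholipids and is an LXR target, it was -0.45 (adjusted p = 0.0411). LPCAT3 had 22.0 and 25.4 CPM in LY500307-treated KO cells, against 29.2 and 30.4 CPM in vehicle-treated KO cells, and 33.0 and 33.0 CPM in LY500307-treated control cells, against 28.3 and 32.4 CPM in vehicle-treated control cells. This call was lost in 6 of the 8 fits without 1 library, with adjusted p of 0.144 (KO with LY500307, replicate 1), 0.109 and 0.132 (control with LY500307, replicates 1 and 2), 0.0636 and 0.194 (KO with vehicle, replicates 1 and 2) and 0.232 (control with vehicle, replicate 1).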

How the results depend on the processing

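Leaving out 1 library at a time gave 19 to 20 called genes for KO against control cells with vehicle, 20 to 23 with LY500307, 7 to 14 for LY500307 against vehicle in KO cells, 8 to 15 in control cells, 25 to 27 for KO with LY500307 against control cells with vehicle, and 1 in every fit for the interaction. Under library totals, RLE size factors, DESeq2, no filter and the compared groups alone each count stayed within 1.5 times its main value. The compared groups alone could not be used for the interaction. With the replicate block 3 genes passed the interaction, ABCA1, NPC1 (-0.26) and FADS2 (-0.27), against 1 without it, and 19 genes passed for LY500307 in KO cells against 13. Over all genes the interaction gave 643 calls with the block and 350 with no filter on low counts, against 218. Differences between replicates correlated at 0.041 to 0.110 over 6 pairs of groups, with 2 over 0.1. The main fit did not pair the libraries by replicate number, and whether the numbers pair them was not tested.

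Removing the median of the other genes on the chromosome arm reversed the sign of called values, with no test. For KO against control cells with vehicle, HMGCS1 became 0.41 and IDI1 -0.12. With LY500307, HMGCS1 became 0.41, IDI1 -0.15, SCAP -0.019 and FDFT1 0.00071. For KO with LY500307 against control cells with vehicle, HMGCS1 became 0.48, IDI1 -0.045, SCAP -0.013, FDFT1 0.039 and SQLE 0.18. No other alternative reversed a called value. Low counts limited the precision for TM7SF2, MYLIP and HSD17B7.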
